A study of Mus musculus with 8 samples.

Results

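Transcript levels of 9 forkhead genes were followed across mouse embryonic forebrain and spinal cord with and without the Polycomb protein EED. The 9 genes, Foxa1, Foxa2, Foxc1, Foxc2, Foxd1, Foxd3, Foxf2, Foxj1 and Foxl2, were chosen by name as forkhead factors of floor plate, meninges and mesenchyme, neural crest, ciliated cells, and pituitary and gonad. They are 9 of the 44 forkhead genes among 36317 gene symbols measured. RNA was sequenced in bulk from 8 libraries, 2 from each of 4 groups. Wild-type (wt) embryos gave forebrain at embryonic day (E) 13.5 and 15.5 and spinal cord at E13.5, and the fourth group was EED-cKO forebrain dissected at E15.5. In the knockout Eed was removed by Cre under Sox1, a gene of the early neuroectoderm, so cells without a history of Sox1 activity would keep Eed. The labels do not say whether wt embryos carried Cre or a floxed allele, nor which strain was used, and do not tell 1 embryo from a pool as the source of a replicate. P-values therefore measure only the spread between these samples, which may be technical. Knockout spinal cord, which the design text also names, was not analysed here.

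Forkhead proteins bind DNA through a winged-helix domain, and many of them set or hold the identity of a single lineage. FOXA1 and FOXA2 open closed chromatin in endoderm and in the ventral midline of the neural tube, FOXC1, FOXC2, FOXD1 and FOXF2 act in mesenchyme such as the meninges and vascular mural cells, FOXD3 acts in neural crest, and FOXJ1 switches on the genes of motile cilia. EED is a core subunit of the Polycomb repressive complex PRC2, which methylates histone H3 at lysine 27. PRC2 is known for holding developmental regulators silent, many of them at CpG-rich promoters, in lineages where they are not used.

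Values are RPKM (reads scaled to gene length and to mapped reads), rounded to 0.1, and a difference is a change in log2(RPKM + 1) estimated by limma with its standard error (SE). This scale understates the change of low genes. Calls were made at p under 0.05 after Benjamini-Hochberg adjustment over 17022 tested genes, which reached 1 RPKM in 2 or more libraries. All 9 forkhead lineage factors were tested, and all 9 would also have been tested on the wt libraries alone. An exact permutation test of 2 libraries against 2 cannot go below p = 0.333, and the calls therefore depend on limma's pooling of the spread over genes and groups.

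The targeted gene stood at 25.8 and 27.9 RPKM in wt, against 10 and 10.6 RPKM in EED-cKO forebrain at E15.5, a difference of -1.30 (SE 0.085, limma adjusted p = 8.7e-05). Summed over 6 forebrain marker genes, RPKM was 468.0 to 473.4 in the wt forebrain libraries, 5.4 and 6.7 in spinal cord, and 175.7 and 153.3 in EED-cKO forebrain. Summed over 4 Hox genes of the spinal cord, it was 719.9 and 853.8 in spinal cord, at most 0.2 in wt forebrain, and 40.8 and 37 in EED-cKO forebrain. RPKM sums per library were 378294 to 397320 at E13.5 and 761647 to 843296 at E15.5, and the number of reads behind each library is unknown. EED-cKO replicate 2 stood apart in markers of neighbouring tissue. Its pituitary hormone transcript Pomc was at 103.6 against 9.0 RPKM in replicate 1, and its skeletal muscle actin Acta1 at 49.4 against 3.9. Among erythroid genes, the globin gene Hbb-bt was at 395.4 and 547.4 RPKM in wt and 5.9 and 8.1 RPKM in EED-cKO forebrain at E15.5. Another globin gene, Hbb-bs, was at 3159.1 and 4340.1 RPKM in wt and 5109.1 and 5902.3 RPKM in EED-cKO forebrain. A difference in strain between the groups was not tested.

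The promoters of 7 of the 9 genes were found in RefSeq (GRCm38.p6), from 250 bases before to 50 after a transcript start, with 9 such windows in all. They held 12 to 32 CpG dinucleotides per window, against a median of 7 over 32851 windows of all genes. Shown here, because they belong to the floor plate pair with the largest knockout differences, to a meningeal factor and to the neural crest factor, are exon-free bases upstream of 1 transcript start each for Foxa1 (chr12:57546122-57546361, minus strand, 21 CpG), Foxa2 (chr2:148045949-148046198, minus strand, 20 CpG), Foxc1 (chr13:31806396-31806632, plus strand, 29 CpG) and Foxd3 (chr4:99656049-99656298, plus strand, 21 CpG). For Foxa1 and Foxa2 the start is an alternative one within the gene, so these bases lie in an intron of a longer annotated transcript. Of the 3 Foxa2 starts, that with the most CpG is shown (20, against 6 and 13 upstream of the others). Each sequence reads 5′ to 3′ on the gene's strand, with CpG in capitals.
Foxa1: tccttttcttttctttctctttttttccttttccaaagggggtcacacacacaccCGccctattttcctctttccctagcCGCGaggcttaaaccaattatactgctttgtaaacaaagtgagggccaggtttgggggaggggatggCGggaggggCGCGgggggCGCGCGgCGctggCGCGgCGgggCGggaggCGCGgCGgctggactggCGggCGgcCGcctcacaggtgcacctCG
Foxa2: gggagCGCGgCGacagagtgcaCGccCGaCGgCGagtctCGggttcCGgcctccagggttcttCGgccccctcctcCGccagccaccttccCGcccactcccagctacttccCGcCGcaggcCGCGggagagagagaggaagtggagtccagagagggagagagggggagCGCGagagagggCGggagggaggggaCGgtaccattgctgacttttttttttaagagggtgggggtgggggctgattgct
Foxc1: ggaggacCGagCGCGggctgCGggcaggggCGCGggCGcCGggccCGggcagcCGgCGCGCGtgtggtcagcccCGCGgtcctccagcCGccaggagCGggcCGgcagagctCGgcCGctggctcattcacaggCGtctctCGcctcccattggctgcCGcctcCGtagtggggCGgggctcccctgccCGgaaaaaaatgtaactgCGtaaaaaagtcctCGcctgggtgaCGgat
Foxd3: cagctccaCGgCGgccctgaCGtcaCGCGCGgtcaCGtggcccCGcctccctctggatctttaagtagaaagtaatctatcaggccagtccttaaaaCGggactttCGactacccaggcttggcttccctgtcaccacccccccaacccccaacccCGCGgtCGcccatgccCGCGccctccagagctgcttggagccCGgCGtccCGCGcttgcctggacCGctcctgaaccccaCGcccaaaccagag
CpG count among the 9 windows was lowest for 2 alternative starts of Foxa2 (12 and 13) and for Foxd1 (15), and highest for Foxc1 (32). The forkhead core motif TGTTTAC, searched on both strands, was present in the Foxa1 window and in 3.65% of all windows. Histone marks and factor binding were not measured here, and a match or its absence is a description of these letters.

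All 9 forkhead lineage factors were higher in EED-cKO than in wt forebrain at E15.5, with differences of 0.68 to 2.86 and a median of 1.48. Over all tested genes, 30.2% were called higher in this comparison, and the median difference was 0.08. For 8 of the 9 the difference was at least 1, against 6.58% of all tested genes that were called higher by that much. In all 9, both EED-cKO values lay above both wt values, which held for 42.6% of tested genes. The plot of RPKM by library shows the 4 groups of each gene.

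**Figure D1:**
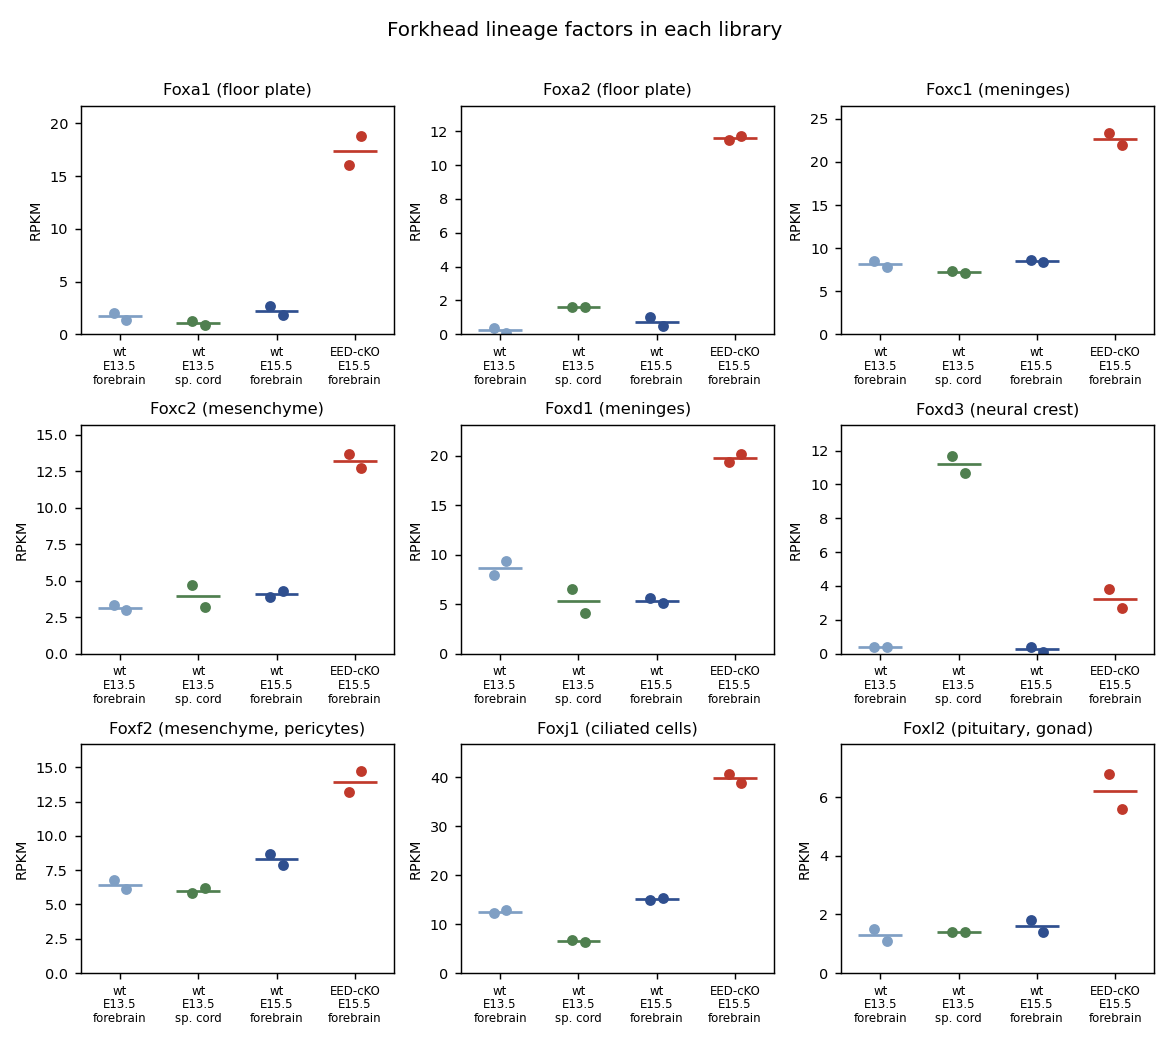
RPKM of the 9 forkhead lineage factors in each of the 8 libraries (points) with the group mean (line). In every panel but that of Foxd3 the 2 EED-cKO points are the highest; Foxd3 is highest in spinal cord, at 11.7 and 10.7 RPKM.

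The floor plate factors showed the largest knockout differences. Foxa2 (chr2:148042877-148046969, GRCm38), which drives floor plate and midbrain dopaminergic fate, was at 1.0 and 0.5 RPKM in wt, against 11.5 and 11.7 RPKM in EED-cKO forebrain, a ratio of means of 15.5. The wt values are low and unequal, so this ratio is imprecise, but both EED-cKO values were more than 10 times the higher wt value. The difference was 2.86 (SE 0.163, limma adjusted p = 6.0e-05). Foxa1 (chr12:57540628-57546916), its close relative with partly shared roles, rose from 2.7 and 1.8 RPKM to 16.0 and 18.8 RPKM. Foxa1 thus reached the higher EED-cKO level of the pair, with a difference of 2.51 (SE 0.184, adjusted p = 1.3e-04).

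Of 21 listed genes of the floor plate and of Hedgehog signalling, all tested, 19 rose in EED-cKO forebrain and 1 fell, with a median difference of 1.05. On the wt libraries alone 19 would have been tested, of which 17 rose and 1 fell, with the same median. Calls of a lower level were made for 16.7% of all tested genes. The summed RPKM of the list was 224.2 and 195.5 in wt and 347.2 and 350.2 in EED-cKO forebrain. Those of largest change included Ferd3l, a bHLH factor of the floor plate (0.6 and 0.0 against 3.3 and 6.7 RPKM, difference 2.19), and Nkx2-2, a ventral progenitor factor (6.3 and 5.7 against 27.9 and 29.8 RPKM, difference 2.09). Lmx1b, a LIM-homeobox factor of midbrain floor plate, rose by 2.06. Shh, the ligand made by the floor plate and a target of FOXA2, rose from 2.3 and 2.7 RPKM to 5.5 and 5.5 RPKM (difference 0.90, SE 0.1, limma adjusted p = 5.9e-04). The floor plate marker Corin, a membrane protease, stayed near the rounding step, at 0.1 and 0.0 RPKM in wt and 0.2 and 0.3 RPKM in EED-cKO forebrain (adjusted p = 0.0675).

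FOXA factors are also endoderm factors, so endoderm genes were read beside them. Of 20 listed endoderm and epithelial genes, 13 were tested, of which 12 rose and 0 fell, led by the epithelial adhesion gene Epcam (2.68) and by Gata4 (2.66). On the wt libraries alone 10 would have been tested, of which 9 rose and 0 fell. Epcam differed between EED-cKO replicates 1 and 2, at 7.9 and 21.3 RPKM, against 1.0 and 1.4 RPKM in wt at E15.5. In wt forebrain at E13.5, Epcam was at 8.3 and 6.2 RPKM. Gata4, listed at 0 in every wt library, was tested only through its EED-cKO values. The defining hepatic markers Hnf4a and Alb were listed at 0 in all 8 libraries, and Afp was at most 0.1 RPKM. Foxa3, the remaining FOXA gene and the one most tied to endoderm, was listed at 0 in all 8 libraries. The summed RPKM of this list was set by Ttr, which the choroid plexus also makes in quantity, at 2072.2 and 2232.5 RPKM in wt and 5652.1 and 4411.6 RPKM in EED-cKO forebrain. What part such cells had in the FOXA values was not tested.

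The 4 mesenchymal factors were already present in wt forebrain and rose by less than the FOXA pair in the ratio of their means. Foxd1 (chr13:98354242-98359305), a gene of meningeal and other stromal precursors that also patterns the hypothalamus and retina, rose from 5.6 and 5.1 RPKM to 19.4 and 20.2 RPKM (difference 1.71, SE 0.176, limma adjusted p = 4.3e-04). Foxc2 (chr8:121116171-121118895), which acts in paraxial mesoderm and lymphatic vessels, rose from 3.9 and 4.3 RPKM to 13.7 and 12.7 RPKM (difference 1.48, SE 0.148, adjusted p = 3.8e-04). Foxc1 (chr13:31806633-31812476), which is needed for forebrain meninges, rose from 8.6 and 8.4 RPKM to 23.3 and 22.0 RPKM (difference 1.32, SE 0.0765, adjusted p = 6.3e-05). In these 3 genes the ratio of means ran from 2.66 for Foxc1 to 3.7 for Foxd1, and every EED-cKO value lay above every wt value. Foxf2 (chr13:31625816-31631403), a gene of brain pericytes and of palate mesenchyme, rose from 8.7 and 7.9 RPKM to 13.2 and 14.7 RPKM. Its difference of 0.68 (SE 0.0956, adjusted p = 0.0014) was the smallest of the 9.

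Meningeal and mesenchymal genes rose with them. All 31 listed genes were tested and all 31 rose, with a median difference of 1.35. On the wt libraries alone 30 would have been tested, and all 30 rose, with a median of 1.39. The summed RPKM of the list went from 835.8 and 749.3 in wt to 1979.0 and 2111.1 in EED-cKO forebrain. Among the largest changes were those of Twist1, a mesenchymal bHLH factor (2.5 and 2.0 against 25.9 and 25.3 RPKM, difference 3.04), Six2 (2.45) and the collagen gene Col1a1 (2.37). Col1a1 differed between the EED-cKO replicates, at 125.0 and 207.4 RPKM, and Dcn, a matrix proteoglycan, was at 107.8 and 105.6 RPKM. Among 14 pericyte genes, all tested, 11 rose and 0 fell, with a median of 0.92. Pdgfrb, the receptor that recruits pericytes, rose from 12.3 and 8.4 RPKM to 20 and 22.7 RPKM, while Kcnj8, a potassium channel of pericytes, was at 10.9 and 12.7 RPKM in wt and 12.8 and 13.4 RPKM in EED-cKO forebrain. In bulk RNA, more cells of a type and more RNA per cell cannot be told apart, and the part of mesenchymal cells in these 4 values was not tested.

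**Figure D2:**
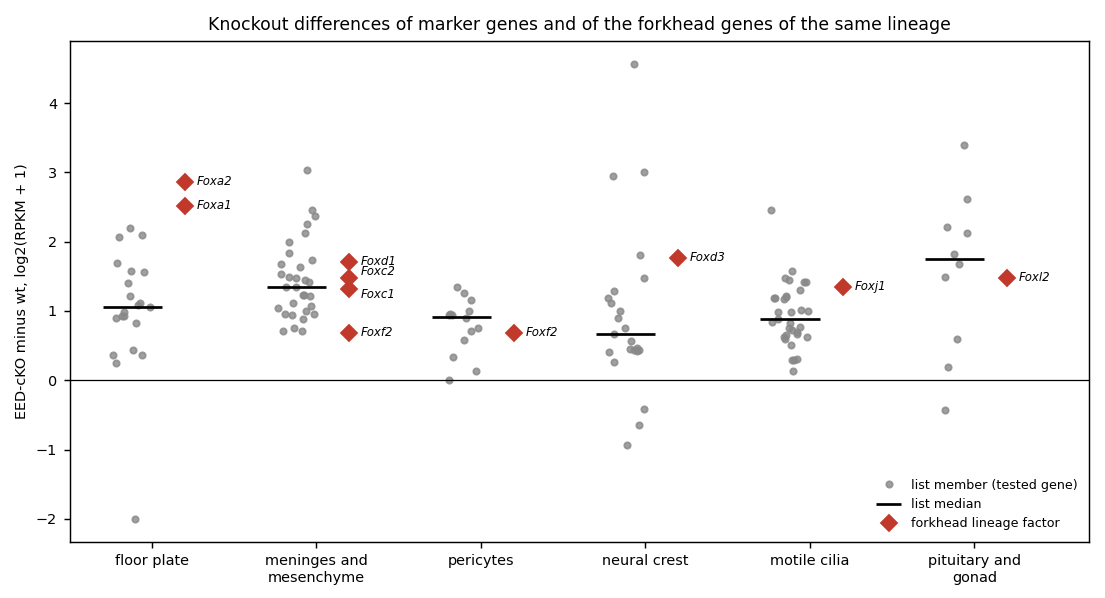
Knockout difference in log2(RPKM + 1) of each tested gene in 6 marker lists (grey points, with the list median as a line) beside the forkhead factors of the same lineage (red diamonds). Foxa1 and Foxa2 lie above every floor plate gene and Foxf2 lies below every mesenchymal gene, whereas the others lie within the range of their lists.

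Foxc1, Foxc2 and Foxf2 lie in forkhead gene clusters, which allowed neighbours to be compared. On chromosome 13, Foxq1, Foxf2 and Foxc1 follow each other with gaps of 64.8 kb and 175.2 kb. Foxq1, at one end, was at 8.4 and 8.4 RPKM in wt, against 9.1 and 7.8 RPKM in EED-cKO forebrain, a difference of 0.00 (SE 0.105, limma adjusted p = 0.996), beside 0.68 for Foxf2 and 1.32 for Foxc1. On chromosome 8, Foxf1, Foxc2 and Foxl1 are separated by gaps of 28 kb and 9.04 kb, and all 3 rose. Foxf1, a factor of visceral mesenchyme, went from 1.2 and 1.1 RPKM to 4.9 and 4.0 RPKM (difference 1.34), and Foxl1, of gut mesenchyme, from 0.3 and 0.3 RPKM to 1.3 and 1.2 RPKM (0.79). Foxl1 was tested only through its EED-cKO values. Foxc2 lies wholly within the annotated gene Gm20388 on the same strand, so reads of the 2 cannot be told apart. Annotated miRNA genes of 89 and 98 bases lie within Foxd3 and Foxf2. The genes that flank the clusters, Exoc2, Gmds and Mthfsd, were not called, with differences of -0.13, 0.08 and 0.07.

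**Figure D3:**
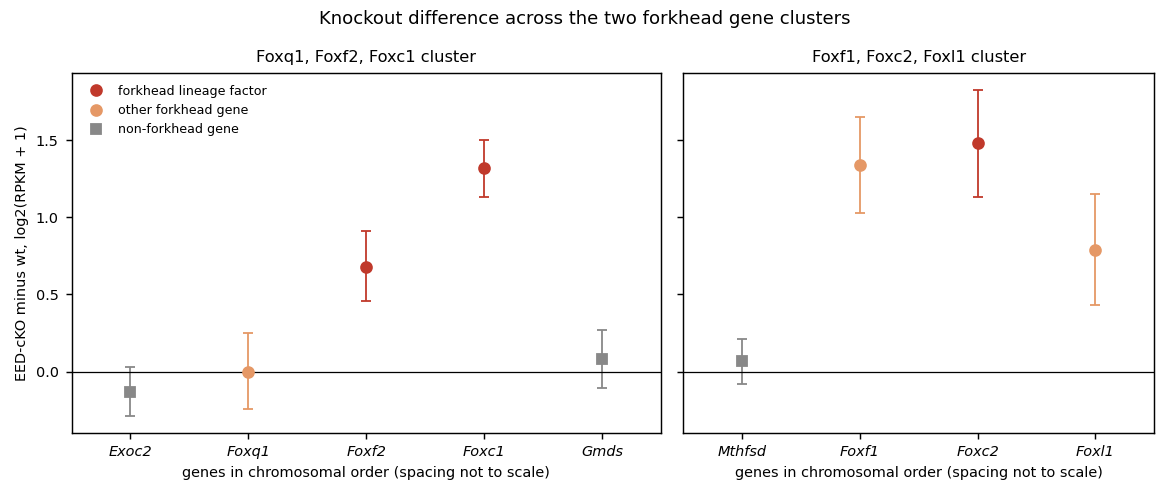
Knockout difference in log2(RPKM + 1) with its 95% interval (limma) for the genes of the chromosome 13 cluster (left) and the chromosome 8 cluster (right), in chromosomal order with spacing not to scale. The interval of Foxq1 spans 0, and those of Foxf2, Foxc1, Foxf1, Foxc2 and Foxl1 lie above it. Foxl1 was tested only through its EED-cKO values.

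Across all 9 genes, the nearest protein-coding neighbours that are not forkhead genes numbered 16, of which 13 were tested. Of these 4 were called higher and 1 lower in EED-cKO forebrain, with a median difference of 0.07. These shares are near or below the 30.2% and 16.7% of all tested genes and are no result about the neighbours. The 4 were Pax1, near Foxa2, a paired-box factor of sclerotome (0.0 and 0.0 against 3.5 and 3.4 RPKM, difference 2.15), Ttc6, near Foxa1 (1.22), Sstr4 (0.94) and Alg6 (0.58). Pax1 and Ttc6 were tested only through their EED-cKO values. Btf3, near Foxd1, fell by 0.44. This set of neighbours was defined after the values had been seen.

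Foxd3 (chr4:99656299-99658622), a factor of premigratory neural crest and of dorsal and V1 spinal interneurons, rose from 0.4 and 0.1 RPKM in wt to 3.8 and 2.7 RPKM in EED-cKO forebrain. The wt values are only a few rounding steps above 0, so the ratio of means, 13, is imprecise. The difference was 1.76 (SE 0.16, limma adjusted p = 2.7e-04). Of 24 listed neural crest genes 23 were tested, of which 15 rose and 3 fell, with a median of 0.67. On the wt libraries alone 21 would have been tested, of which 13 rose and 3 fell, with a median of 0.56. The summed RPKM of the list was 181.8 and 150.2 in wt and 293.9 and 285.5 in EED-cKO forebrain. Hand2, a bHLH factor of sympathetic and cardiac crest, was listed at 0 throughout the 6 wt libraries, against 22.8 RPKM in each EED-cKO library. Hand2 was thus tested only through its EED-cKO values. Tfap2a, an early crest factor, rose from 0.9 and 0.3 RPKM to 10.5 and 11.7 RPKM. Neither Sox10 nor Erbb3, markers of the glial branch of the crest, was called higher. Sox10 fell from 5.5 and 4.3 RPKM to 2.6 and 2.9 RPKM (difference -0.65, limma adjusted p = 0.0357), and Erbb3, a neuregulin receptor, was at 0.3 and 0.3 against 0.6 and 1.3 RPKM (adjusted p = 0.0671). Sox10 is also a gene of oligodendrocyte precursors.

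Foxj1 (chr11:116330704-116335399), the master regulator of motile cilia in ependyma and choroid plexus, had the highest level of the 9 in every forebrain group. It rose from 14.9 and 15.4 RPKM in wt to 40.7 and 38.8 RPKM in EED-cKO forebrain. The replicates lay close together, and the difference of 1.34 (SE 0.0699) had the lowest adjusted p of the 9 (limma, 4.1e-05). Of 40 listed motile cilia genes 33 were tested, of which 29 rose and 0 fell, with a median of 0.88. On the wt libraries alone 25 would have been tested, of which 22 rose and 0 fell, with a median of 0.98. The summed RPKM of the list went from 175.6 and 178.9 to 350.5 and 359.9. The list was led by Spag6, a central-pair protein of the axoneme (0.0 and 0.0 against 4.9 and 4.1 RPKM), Fam183b (1.57), Cfap44 (1.48) and Rsph4a, a radial spoke protein (1.44). Spag6 was tested only through its EED-cKO values. Among the low-level regulators of multiciliated cells, Mcidas rose by 0.60 and Ccno by 0.62, while Gmnc, which acts above both, was at 0.4 and 0.3 RPKM in wt and 0.7 and 0.6 RPKM in EED-cKO forebrain (adjusted p = 0.129). Rfx3, which acts with FOXJ1 on ciliary genes, was at 11.2 and 8.3 RPKM and at 11.9 and 12.3 RPKM. Ttr, which marks choroid plexus, was higher in the same 2 libraries. The share of choroid plexus in the 2 dissections was not tested.

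Foxl2 (chr9:98955288-98958543), a factor of pituitary gonadotropes and thyrotropes, ovary and eyelid mesenchyme, rose from 1.8 and 1.4 RPKM to 6.8 and 5.6 RPKM (difference 1.47, SE 0.134, limma adjusted p = 2.8e-04). Pituitary genes differed between the EED-cKO replicates. Cga, the common subunit of glycoprotein hormones, was at 25.6 and 0.0 RPKM in replicates 2 and 1, Tshb at 20.3 and 0.0, and Pou1f1 at 4.6 and 0.0. Lhb, the luteinizing hormone subunit of gonadotropes, was at 1.6 and 1.6 RPKM in wt and, like Foxl2, higher in EED-cKO replicate 1 (8.7 RPKM) than in replicate 2 (6.2 RPKM). Fshb was listed at 0 in all 8 libraries. The part of pituitary cells in the Foxl2 values was not tested. Pitx1, a factor of pituitary, oral ectoderm and first-arch mesenchyme, was high in both, at 7.9 and 11.4 RPKM in replicates 1 and 2. Of 20 listed pituitary and gonad genes 10 were tested, of which 7 rose and 1 fell. The antisense gene Foxl2os, which starts head to head with Foxl2 and overlaps it by 12 bases, rose from 1.0 and 0.7 RPKM to 4.6 and 3.7 RPKM. Reads were unstranded, so over those bases the 2 genes cannot be told apart.

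The regional comparison asked how the same genes differ between spinal cord and forebrain when EED is intact. Of the 9 genes, 2 were higher and 2 lower in spinal cord than in forebrain at E13.5, and 5 were not called, with a median of -0.09. Over all tested genes, 21.8% were called higher and 23.9% lower, so the members' shares were close to the background. Foxd3 was far higher in spinal cord, at 11.7 and 10.7 RPKM against 0.4 and 0.4 RPKM in forebrain (difference 3.12, SE 0.16, limma adjusted p = 1.4e-05). Foxa2 was at 1.6 and 1.6 RPKM in spinal cord and 0.4 and 0.1 RPKM in forebrain (1.07, SE 0.163, adjusted p = 0.00174). The other floor plate factor, Foxa1, was not called, at 1.3 and 0.9 RPKM in spinal cord and 2.0 and 1.4 RPKM in forebrain (-0.36, adjusted p = 0.153).

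Foxj1 was lower in spinal cord, at 6.8 and 6.3 RPKM against 12.3 and 12.8 RPKM (-0.84, SE 0.0699, limma adjusted p = 1.1e-04). Foxd1 was also lower, at 6.5 and 4.1 RPKM against 8.0 and 9.4 RPKM (-0.65, SE 0.176, adjusted p = 0.0212). The Foxd1 call was lost in 7 alternative fits, among them that without spinal cord replicate 2 (-0.37, adjusted p = 0.0762) and those without forebrain replicate 1 (-0.75, adjusted p = 0.0504) or 2 (-0.54, adjusted p = 0.13). The other mesenchymal factors were not called: Foxc1 was at 7.4 and 7.1 against 8.5 and 7.8 RPKM, Foxc2 at 4.7 and 3.2 against 3.3 and 3.0 RPKM, and Foxf2 at 5.8 and 6.2 against 6.8 and 6.1 RPKM. The 95% intervals of their differences were -0.33 to 0.03, -0.11 to 0.59 and -0.31 to 0.14. Foxl2, at 1.4 and 1.4 against 1.5 and 1.1 RPKM, had an interval of -0.25 to 0.38.

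The marker lists differed between the tissues in several ways. Of the floor plate genes 11 were higher and 3 lower in spinal cord, with Spon1, a matrix protein of the floor plate, at 40.3 and 43.1 against 5.5 and 5.3 RPKM. Of the neural crest genes 14 were higher and 4 lower, and Erbb3 was at 8.0 and 5.4 against 1.1 and 0.8 RPKM. The part of such cells in the Foxd3 level was not tested. Of the motile cilia genes 2 were higher and 19 lower, with Ccno at 0.0 and 0.0 against 3.4 and 4.0 RPKM. The meningeal and mesenchymal list was divided, 10 higher and 11 lower.

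**Figure D4:**
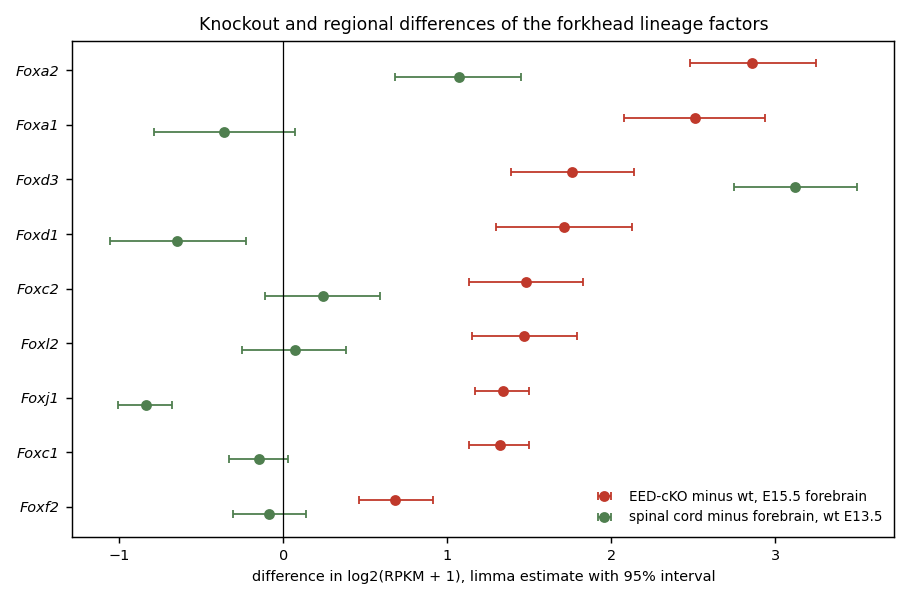
Differences in log2(RPKM + 1) with 95% intervals (limma) of the 9 forkhead lineage factors between EED-cKO and wt forebrain at E15.5 (red) and between wt spinal cord and wt forebrain at E13.5 (green). The red interval lies to the right of the green one for each gene but Foxd3, where the order is turned round.

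The knockout and regional comparisons share no library, so their difference could be tested directly. The knockout difference exceeded the regional one in 8 of the 9 genes, by 0.77 for Foxf2 up to 2.87 for Foxa1, where 23.4% of all tested genes were called higher in this test. Foxd3 was the exception, with a knockout difference smaller than the regional one by -1.36 (SE 0.226, limma adjusted p = 0.00376), and 12.7% of tested genes were called lower. EED-cKO forebrain thus held Foxd3 at 3.8 and 2.7 RPKM, below both spinal cord values, while Foxa2 at 11.5 and 11.7 RPKM lay above both. For these 2 genes the call depended on the pseudocount, since with 0.1 in place of 1 RPKM the contrast was 1.42 (adjusted p = 0.132) for Foxa2 and -1.11 (adjusted p = 0.181) for Foxd3. Age differs between the 2 comparisons as well.

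Between E13.5 and E15.5 in wt forebrain 4 of the 9 genes were called. Foxf2 (0.32), Foxj1 (0.25) and Foxa2 (0.48) were called higher and Foxd1 (-0.61) lower at E15.5, where 62.5% of all tested genes were called higher and 14.5% lower. The median over all tested genes was 0.52, and the scale of the E15.5 libraries differs from that of the E13.5 libraries. Once libraries were brought to a common scale, by quantile normalization or by median ratio, the directions of Foxf2 (-0.08 and -0.25) and Foxj1 (-0.20 and -0.35) were reversed and Foxa2 was not called (0.03 and 0.29). Foxd1 stayed lower under both. This comparison shares the wt E15.5 libraries with the knockout comparison.

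The order of the 4 groups was the same at the top for 8 genes, with EED-cKO forebrain first, and the gap to the next group was free of overlap in each. Below it the wt groups often overlapped. The wt E15.5 forebrain values overlapped those of the next group for Foxa1, Foxc1, Foxc2, Foxd1 and Foxl2. For Foxd3 the order was spinal cord, EED-cKO forebrain, then the 2 wt forebrain groups, whose values overlapped. Compared per length within spinal cord, Foxd3 had the highest mean level of the 9 at 11.2 RPKM, followed by Foxc1 at 7.25 and Foxj1 at 6.55 RPKM.

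Genes whose pattern over the 8 libraries was closest were found among 14297 candidates by the root mean square difference of centred log2(RPKM + 1), given in log2 units as a description. Foxa2 lay closest to Dmbx1 (0.215) and En1 (0.263), homeobox genes of the midbrain. Both were low in wt forebrain and rose in EED-cKO forebrain, to means of 8.75 and 10.7 RPKM. Foxd3 lay closest to Ngfr (0.197), the neurotrophin receptor of neural crest, and to Msx3 (0.235) and Skor2 (0.287), regulators in the dorsal neural tube and spinal interneurons. Foxd1 lay closest to Crispld1 (0.112) and the mesenchymal factor Osr2 (0.176), Foxc1 to Fkbp10 (0.067), a chaperone of collagen, and Foxc2 to Prdm6 (0.093), a factor of smooth muscle. Foxj1 lay closest to Mlf1 (0.101) and to the axonemal gene Cfap52 (0.105), and Foxl2 to Insl3 (0.055), with its antisense gene Foxl2os (0.101) among the nearest 3. For Foxa1 the nearest was Tap1 (0.191), and for Foxf2 Aoc3 (0.061), an amine oxidase of vascular smooth muscle.

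The other forkhead genes were read beside these. Of 35 measured, 22 were tested, of which 8 rose and 5 fell in EED-cKO forebrain, with a median difference of 0.21. Over the 20 that the wt libraries alone would have let through, 6 rose and 5 fell, with a median of 0.10. Foxe1 and Foxl1 were tested only through their EED-cKO values. Over all tested genes 30.2% were called higher and 16.7% lower, so these counts are near the background and are no result about the family. The lineage genes Foxb1, of the mammillary region and hindbrain (4.9 and 2.8 against 14.0 and 11.1 RPKM, difference 1.51), and Foxe1, of thyroid and oral ectoderm (listed at 0 in all 6 wt libraries and at 1.4 and 3.9 RPKM), were among those that rose. Foxo6, of cortical and hippocampal neurons, fell by 1.39. Among further members, Foxk1 (0.58) and Foxo3 (0.58) rose, and Foxm1 (-0.63), Foxn2 (-0.40) and Foxk2 (-0.18) fell. Foxp1, Foxp2, Foxp4, Foxj2, Foxj3, Foxn3, Foxo1 and Foxo4 were not called, with differences of -0.20 to 0.43.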

How the data were processed

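Total RNA libraries of dissected forebrain and spinal cord were sequenced as unstranded single-end reads of 50 bases on a HiSeq2500, per the labels' protocols. The authors deposited 1 table of RPKM values for the 8 libraries, rounded to 0.1. The submitters' processing notes name mm9 and GRCm38 without a role; the aligner and counter are not given in the sources used here. Gene positions are from GENCODE on GRCm38 and promoter windows from RefSeq on GRCm38.p6.

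For the 4 E15.5 columns the gene names were sorted alphabetically, ignoring case and hyphens. This raised the correlation across rows between the 2 ages of wt forebrain from 0.76 to 0.948. All 44 forkhead genes keep their row in both orders, so their values do not depend on this step, whereas the tested background does. Groups follow the labels. For 9 duplicated symbols the row of the highest mean was kept. All 8 libraries were fitted together on log2(RPKM + 1) with 4 group means with limma (version 3.58.1, R version 4.3.3), using eBayes with a trend and two-sided tests on 4 residual degrees of freedom, and the script was tested on simulated data. Python 3.11.15 with pandas 2.3.3 and matplotlib 3.10.9 made the tables and plots.

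The 9 genes, the marker lists and the tests were chosen with earlier results of these data known. All 9 were named, with up to 4 called genes of largest change per list and comparison, the lists' defining markers, Eed, and the 3 genes of closest pattern; other genes were named after their values had been seen. Alternatives covered the pseudocount, the filter, scaling, row order, libraries fitted, a replicate block and each library left out. Some genes of these lists are not reported here by name.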

Additional observations from a re-analysis of the deposited data

How the results depend on the processing

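All 9 knockout calls kept their direction and stayed called under each of the alternatives run. These gave 162 estimates, each of 1 gene under 1 alternative, so they are not separate fits. The alternatives of row order leave the values of the 9 genes unchanged and alter only the other genes fitted. The total of genes called in that comparison, 7987, was 4777 with only the 4 libraries compared and ran from 4922 (without EED-cKO replicate 2) to 9606 with 1 library left out. The share of calls that were higher, 64.5%, was 45.1% after quantile normalization and 48.8% after median ratio scaling. With only the genes that keep their row, which are fewer, totals were 4929 for the knockout, 4792 of 7784 for the regional, 7209 of 13117 for the age comparison and 3880 of 6137 for the difference of knockout and regional change. In the regional comparison Foxa1 was called after quantile normalization (-0.49). Foxc2 ran from 0.02 to 0.46 with 1 library left out and was called without spinal cord replicate 2. Foxd1 was not called without the filter (-0.65, adjusted p = 0.0703) or with 4 libraries (-0.65, adjusted p = 0.125), nor without either EED-cKO replicate (adjusted p = 0.0544), and ran from -0.92 to -0.37 with 1 library left out. Foxl2 was reversed after quantile normalization (-0.05) and ran from -0.06 to 0.19. With a pseudocount of 0.1, the difference of the 2 changes was 1.42 for Foxa2 and -1.11 for Foxd3, neither called. Of the 4 age calls, 2 were left with 4 libraries and 1 to 4 with 1 library left out. Age directions were reversed by quantile normalization and median ratio scaling for Foxa1 (-0.16 and -0.17), Foxc1 (-0.35 and -0.53), Foxc2 (-0.12 and -0.21), Foxf2 (-0.08 and -0.25), Foxj1 (-0.20 and -0.35) and Foxl2 (-0.24 and -0.21). With 1 library left out, Foxc1 ran from 0.00 to 0.11 and Foxd3 from -0.35 to 0.00. Beyond what row choice and sample number show, the cause was not tested. The labels do not pair replicate numbers, whose deviations correlated at -0.124 to 0.211. With a replicate block the totals were 7608 for the knockout and 7466 for the regional comparison, with 9 and 4 of the 9 genes called. With the numbers of the E15.5 groups crossed, chosen after seeing the data, 7830 genes were called in the knockout comparison. The mapped depth of each library is unknown, and levels under about 1 RPKM carry a rounding error that is large beside them.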
